A study of Homo sapiens with 13 samples.

Results

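The comparison described here is the knockdown of SMARCA4 set against the control siRNA named siControl2, with 1 RNA sequencing library each, so 2 of the 13 libraries of the study. The cells were LNCaP-abl, an androgen-independent derivative of the LNCaP human prostate cancer line. They were grown in RPMI medium free of phenol red with 10% charcoal-stripped serum, which is depleted of steroid hormones, and were used between passages 53 and 60. Both groups were transfected with a pool of siRNAs, against SMARCA4 or as a control, and RNA was taken 72 h later. The other 11 libraries came from the same cells and are labelled as knockdowns of RAD21, CTCF, FOXA1, FOXM1, KDM1A, BRCA1, BRCA2, the PRC2 genes EED and EZH2, or the long non-coding RNAs MALAT1 and PCAT1, and serve here only to show how far a gene's level spread across knockdowns. The libraries were chosen by the siRNA that their labels name.

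SMARCA4, also called BRG1, is an ATPase of the SWI/SNF (BAF) complexes, which slide or evict nucleosomes and so open promoters and enhancers to transcription factors. SMARCA2 is the alternative ATPase, and a complex carries either of them beside core subunits such as SMARCB1, SMARCC1 and SMARCC2 and the ARID or PBRM1 subunits that set its class.

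Levels are given in FPKM, the number of sequenced fragments per kilobase of transcript relative to all mapped fragments of the library, and differences as siSMARCA4 minus siControl2 on the log2(FPKM + 1) scale, which understates the change of low genes. A gene was counted as 2-fold higher or lower where that difference was at least 1 in size. There was 1 library per group, so no difference has a replicate check and none was tested. Depth is unknown, because the values carry no counts. In the files, siSMARCA4 was the library with the fewest extreme values. It held the lowest of the 13 levels for 485 of 15780 genes (3.07%) and the highest for 448 (2.84%), against 1001 to 2281 and 930 to 2485 genes in the other 11 knockdowns. The siControl2 library held the lowest level for 768 genes (4.87%) and the highest for 838 (5.31%). All differences from siControl2, those of the other knockdowns included, share that library. The library labelled siMALAT1 goes against its label, with MALAT1 at 21.7 FPKM in it and 16.4 FPKM in siControl2. The PCAT1 transcript was not analysed here. The other 11 are called knockdowns below by their labels.

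SMARCA4 itself stood at 7.72 FPKM in siSMARCA4, against 45.1 FPKM in siControl2, so that 17.1% of the control level remained and the difference was -2.40. In the other 11 knockdowns it ranged from 27.9 to 51.6 FPKM, with a median of 40.4. The library labelled as the knockdown was therefore the lowest of the 13 for its own target, 1.73 below the next library on the log2 scale.

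The partner subunits of SMARCA4 stayed close to the control. Of 26 SWI/SNF genes kept of 28 listed, 0 were 2-fold higher and 1, SMARCA4, was 2-fold lower (3.85%), beside 0.494% and 1.97% of all genes. By any amount, 20 of the 26 were below siControl2, beside 44.6% of all genes. The median difference of the list was -0.17 from siControl2, beside 0.03 over all 15780 genes, and -0.05 from the median of the other knockdowns. SMARCA2, the alternative ATPase, was at 30.2 FPKM in siSMARCA4, between 26.8 and 48.4 FPKM in the other knockdowns and at 32.7 FPKM in siControl2. The core subunit SMARCB1 was at 47.3 FPKM in siSMARCA4 and 47.4 FPKM in siControl2. ARID1A, the DNA-binding subunit that marks the canonical BAF class, was at 19.6 FPKM in siSMARCA4 and 19.0 FPKM in siControl2, and PBRM1, which marks the PBAF class, was at 3.62 FPKM against 5.68 FPKM (-0.53).

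The lowest differences after SMARCA4 belonged to accessory subunits. SS18, a subunit of canonical and GLTSCR1-containing complexes, was at 12.4 FPKM in siSMARCA4, from 13.2 to 20.4 FPKM in the other knockdowns and at 22.2 FPKM in siControl2 (-0.80). It was the lowest of the 13, by 0.09. BCL7B was at 9.71 FPKM in siSMARCA4 and 17 FPKM in siControl2 (-0.75), inside a range of 9.50 to 21.8 FPKM in the other knockdowns. The highest difference was that of DPF2, a histone-reading subunit, with 21.3 FPKM in siSMARCA4 and 15.4 FPKM in siControl2 (0.44). Among 19 ATPases of other remodelling families the median difference was 0.03, and 0 were 2-fold higher. HELLS, a remodeller used for DNA methylation and in dividing cells, was the 1 that was 2-fold lower (5.26%), beside 1.97% of all genes. It was at 1.93 FPKM in siSMARCA4 and 6.81 FPKM in siControl2 (-1.42), the highest library for it. In siSMARCA4 HELLS lay at -0.31 from the median of the other knockdowns.

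**Figure D1:**
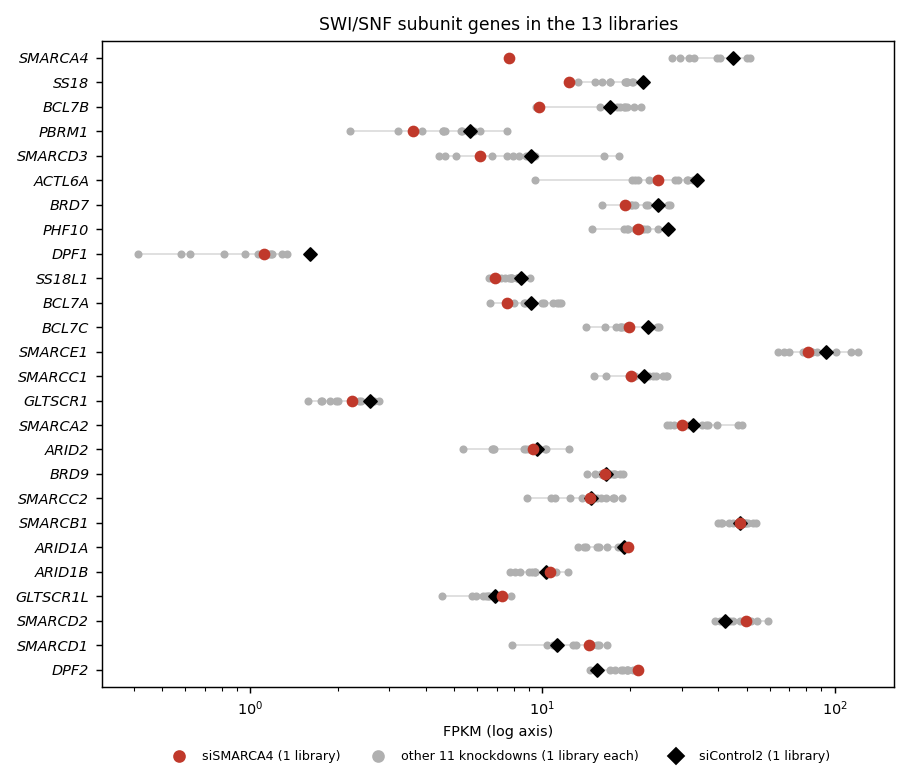
Levels of the 26 SWI/SNF subunit genes in FPKM on a log axis, with 1 red point for siSMARCA4, 11 grey points for the other knockdowns and 1 black diamond for siControl2 per gene, ordered by the difference from siControl2. SMARCA4 at 7.72 FPKM lies left of all other libraries, and for most other subunits the red point lies among the grey ones.

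Across all genes, 78 of 15780 (0.494%) were 2-fold higher and 311 (1.97%) were 2-fold lower in siSMARCA4 than in siControl2. Together they were 2.47% of all genes. Without regard to size, 8724 genes (55.3%) were higher and 7035 (44.6%) lower. Of the 78 higher entries, 38 had a gene symbol, and of the 311 lower ones, 286. The levels of most of these genes in siSMARCA4 were not outside those of the other knockdowns: 58 of the 78 higher and 289 of the 311 lower genes lay within the range of the other 11. Set against the median level of the other 11 knockdowns, 19 genes (0.12%) were 2-fold higher and 32 (0.203%) 2-fold lower in siSMARCA4. Of the 311 lower genes, 87 were among the 125 genes kept on the lists of mitosis, DNA replication, cell cycle transcription factors and homologous recombination, and 224 were outside them. The lists are not complete, so these 224 include further cell cycle genes, such as CDKN3, a mitotic phosphatase (-1.66), and CENPN, a kinetochore gene (-1.27).

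**Figure D2:**
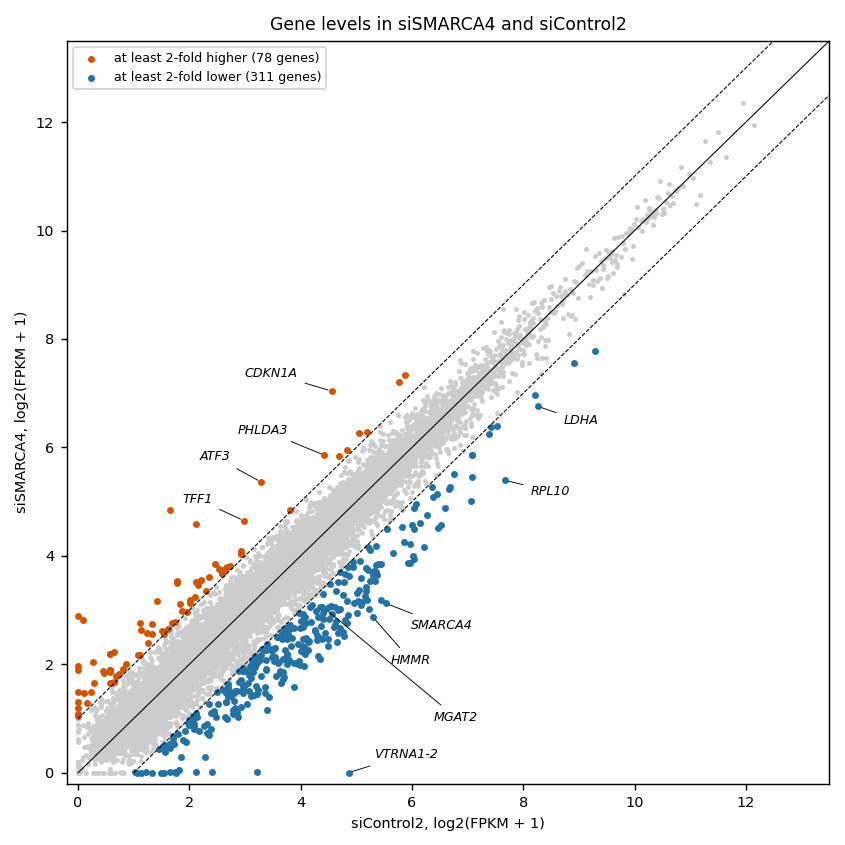
Each point is 1 of 15780 genes, with its level in siSMARCA4 on the vertical axis and in siControl2 on the horizontal axis, both as log2(FPKM + 1). The solid line marks equal levels and the dashed lines a 2-fold difference, with 78 genes above them in orange and 311 below them in blue.

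Genes of G2 and mitosis were the most uniformly lower group. All 38 of the 38 listed genes (100%) were 2-fold lower in siSMARCA4 than in siControl2, beside 1.97% of all genes, with differences between -2.43 and -1.48 and a median of -1.95. In bulk RNA, fewer dividing cells and less of these RNAs per cell cannot be told apart. The siControl2 library held the highest of the 13 levels for 35 of the 38, beside 5.31% of all genes. The list's median difference from siControl2 in the other 11 knockdowns ran from -3.29 in siFOXA1 to -0.31 in siEED, with a median of -1.41, so siSMARCA4 was the fifth lowest of the 12 knockdowns. Against the median of the other 11, all 38 were below it, with a median difference of -0.57.

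HMMR, a receptor for hyaluronan that also acts at the mitotic spindle, was at 6.31 FPKM in siSMARCA4, between 2.00 and 33.7 FPKM with a median of 14 in the other knockdowns and at 38.3 FPKM in siControl2 (-2.43). PLK1, a kinase that drives entry into mitosis, was at 7.09 FPKM in siSMARCA4, between 2.41 and 29.5 FPKM in the other knockdowns and at 36.3 FPKM in siControl2 (-2.21). For both genes siControl2 was the highest library and siSMARCA4 lay inside the range of the other knockdowns. TTK, a kinase of the spindle checkpoint, had a difference of -2.30. CEP55, needed for the last step of cell division, had one of -2.26, and NUF2, a kinetochore component, one of -2.24. CCNA2, encoding cyclin A, was at 4.95 FPKM in siSMARCA4 and 24.4 FPKM in siControl2 (-2.10).

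Promoters of mitotic genes are known for the CHR element, which the DREAM and MuvB complexes bind, and those of S-phase genes for E2F sites. The promoter of HMMR is shown because HMMR had the lowest difference of the mitotic list, and that of PLK1 as a second example. Both are RefSeq sequences of the GRCh38.p14 build, from 250 bases before to 50 bases after the annotated start, and capitals mark the CHR letters TTTGAA. HMMR lies at chr5:163460382-163460681 and PLK1 at chr16:23678639-23678938, both on the + strand. Positions of the first base of each match are counted from the start, and are -28 and -22 in HMMR and -29 in PLK1.
HMMR: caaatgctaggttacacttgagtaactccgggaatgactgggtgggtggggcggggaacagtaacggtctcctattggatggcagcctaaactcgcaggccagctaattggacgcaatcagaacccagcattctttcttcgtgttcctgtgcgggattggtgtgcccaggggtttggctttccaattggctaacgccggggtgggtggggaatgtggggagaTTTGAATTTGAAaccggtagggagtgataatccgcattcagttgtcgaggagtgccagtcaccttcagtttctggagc
PLK1: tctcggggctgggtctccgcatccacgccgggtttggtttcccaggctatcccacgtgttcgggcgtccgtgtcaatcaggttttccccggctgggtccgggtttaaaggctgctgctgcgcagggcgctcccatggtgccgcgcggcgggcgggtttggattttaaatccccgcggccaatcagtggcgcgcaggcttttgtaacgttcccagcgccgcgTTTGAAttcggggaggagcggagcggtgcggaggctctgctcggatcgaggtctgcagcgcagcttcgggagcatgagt

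The letters TTTGAA, searched on both strands, were in 23 of 32 promoters of the mitotic list (71.9%), in 85 of 233 promoters of the 2-fold lower genes (36.5%) and in 2 of 27 of the 2-fold higher genes (7.41%). They were in 997 of 10385 promoters of all genes kept (9.60%) and in 15.4% of the 27305 promoters in the table. Of the 997 genes with the letters, 85 were 2-fold lower in siSMARCA4 than in siControl2 (8.53%), against 148 of 9388 genes without them (1.58%). The median difference from siControl2 was -0.022 with the letters and 0.032 without. From the median of the other knockdowns these medians were -0.030 and 0.006. The counts rest on siControl2, the highest library for most of the mitotic list, and genes 2-fold from the other knockdowns were not split by promoter. Away from the 4 cell cycle and recombination lists, 61 of 968 genes with TTTGAA were 2-fold lower (6.30%). The share for genes off the lists without TTTGAA was not computed, and genes off the lists include further cell cycle genes. CCAAT, searched in the same way, was in 78.1% of the mitotic promoters, 63.1% of the lower genes' promoters, 37.2% of those of all genes kept and 35.7% of all promoters in the table. A match describes the letters and is no evidence of binding.

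Genes of the G1/S transition and DNA replication were lower by a smaller amount. Of 42 genes, 33 were 2-fold lower (78.6%), beside 1.97% of all genes. All 42 were below siControl2, with a median difference of -1.32, beside 0.03 for all genes. The siControl2 library was the highest of the 13 for 37 of the 42. Against the median of the other 11 knockdowns the list's median was -0.17, with 32 of the 42 genes below it. GINS2, a subunit of the replicative helicase, was at 4.55 FPKM in siSMARCA4, between 1.17 and 16.5 FPKM in the other knockdowns and at 19.8 FPKM in siControl2 (-1.91). CDC6, which loads that helicase onto origins, was at 5.91 FPKM in siSMARCA4, between 2.16 and 20.6 FPKM in the other knockdowns and at 23.8 FPKM in siControl2 (-1.84). Both were highest in siControl2 and within the range of the other knockdowns in siSMARCA4. MCM4 and MCM5, which belong to the helicase ring, had differences of -1.91 and -1.86. The E-type cyclins that start S phase differed less: CCNE1 was at 3.49 FPKM in siSMARCA4 and 3.72 FPKM in siControl2 (-0.07). CCNE2 was at 12.5 FPKM in siSMARCA4, 7.60 FPKM in the median of the other knockdowns and 19.9 FPKM in siControl2, and so lay 0.65 above the other knockdowns and 0.63 under the control (-0.63).

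The promoters of GINS2 and CDC6 are shown for their E2F letters, in the same build and window. GINS2 lies at chr16:85688905-85689204 on the - strand and CDC6 at chr17:40287629-40287928 on the + strand. Capitals mark the match, which starts at -31 in GINS2, where it is the reverse complement of TTTCCCGC, and at 8 in CDC6.
GINS2: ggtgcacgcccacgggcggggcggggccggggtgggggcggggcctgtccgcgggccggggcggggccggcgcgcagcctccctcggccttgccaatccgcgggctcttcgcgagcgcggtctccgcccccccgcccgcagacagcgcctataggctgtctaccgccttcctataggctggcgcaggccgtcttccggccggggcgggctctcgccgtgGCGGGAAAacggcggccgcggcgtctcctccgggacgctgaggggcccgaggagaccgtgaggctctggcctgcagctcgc
CDC6: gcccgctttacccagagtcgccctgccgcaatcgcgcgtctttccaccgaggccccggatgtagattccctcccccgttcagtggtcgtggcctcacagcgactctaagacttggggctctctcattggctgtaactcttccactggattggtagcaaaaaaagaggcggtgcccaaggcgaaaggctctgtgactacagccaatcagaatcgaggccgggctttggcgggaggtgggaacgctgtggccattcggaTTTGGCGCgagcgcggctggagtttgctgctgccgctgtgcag
The letters TTTCCCGC, TTTGGCGC or TTTCGCGC on either strand were in 20 of 37 promoters of the replication list (54.1%), in 44 of 233 of the 2-fold lower genes (18.9%), in 4.61% of those of all genes kept and in 2.79% of all promoters in the table. Of 479 genes with such a match 44 were 2-fold lower than in siControl2 (9.19%), against 189 of 9906 without one (1.91%). The median difference from siControl2 was -0.048 with a match and 0.031 without. From the median of the other knockdowns these medians were -0.019 and 0.004. Of the 8960 genes with neither TTTGAA nor an E2F match, 112 were 2-fold lower (1.25%).

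Some of the factors that drive these programmes were below the control. Of 20 cell cycle transcription factors and DREAM components 5 were 2-fold lower (25%) and 0 higher, beside 1.97% and 0.494% of all genes. Their median was -0.38, which was -0.08 among genes with a mean of at least 2 FPKM. Against the median of the other 11 knockdowns the list's median was -0.02, with 9 of the 20 above it, and siControl2 was the highest of the 13 libraries for 11 of the 20. MYBL2, which activates mitotic genes with MuvB, was at 5.01 FPKM in siSMARCA4 and 25.9 FPKM in siControl2 (-2.16). FOXM1, an activator of G2 genes, was at 6.73 FPKM against 20.1 FPKM (-1.45), and E2F1 at 3.38 FPKM against 10.1 FPKM (-1.35). E2F8, a repressor of the family, had a difference of -1.61, and LIN9, the MuvB scaffold, one of -1.35. Of 27 genes of homologous recombination and the Fanconi pathway, 12 were 2-fold lower (44.4%), beside 1.97% of all genes. All 27 were below siControl2, with a median of -0.93 from siControl2 and -0.14 from the other knockdowns. The siControl2 library was the highest for 18 of the 27. FANCI, a clamp component of the Fanconi pathway, was at 7.74 FPKM in siSMARCA4 and 30.2 FPKM in siControl2 (-1.84), and BRCA1, a recombination mediator, was at 3.06 FPKM against 11.1 FPKM (-1.58). Of 15 genes of cohesin and its loaders, 2 were 2-fold lower (13.3%), beside 1.97% of all genes. These were ESCO2 and CDCA5, which acetylate and protect cohesin in S phase (-1.99 and -1.86). The median of the 15 was -0.33 from siControl2 and -0.04 from the other knockdowns, and 3 were above siControl2.

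**Figure D3:**
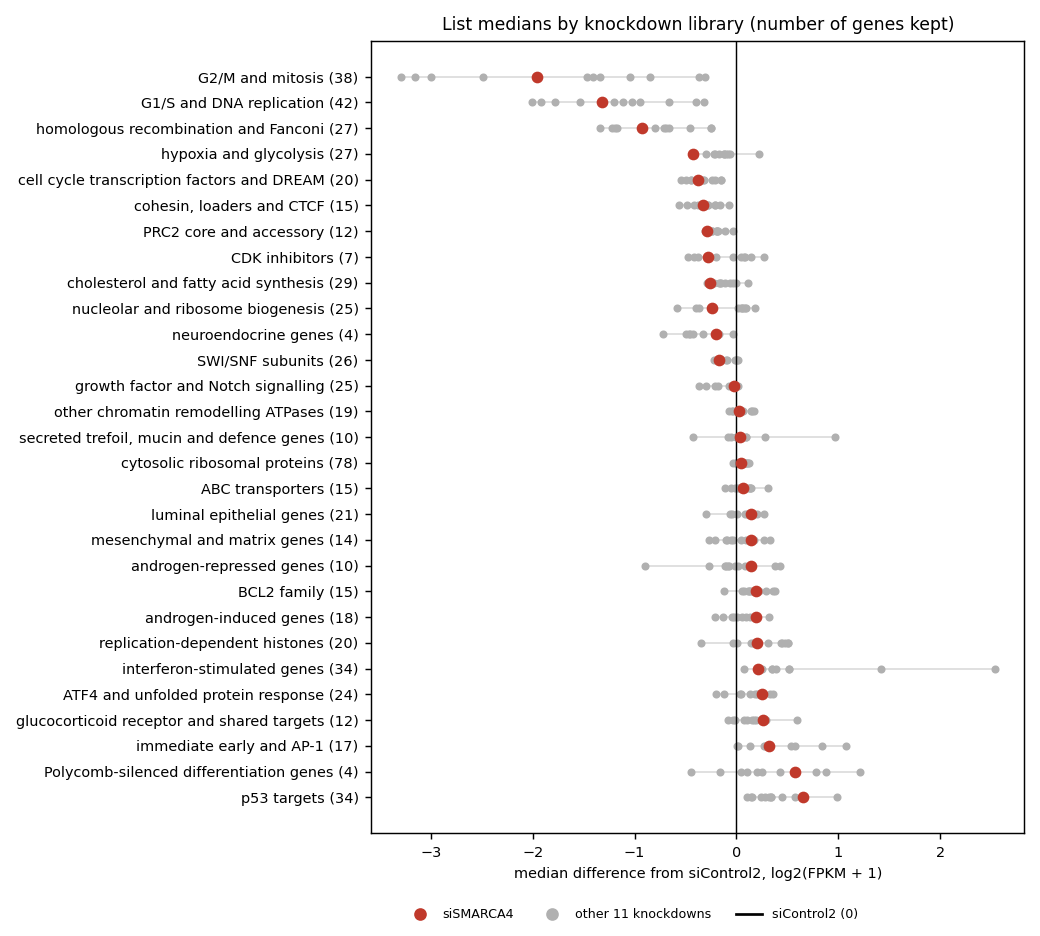
Median difference from siControl2 on the log2(FPKM + 1) scale for 29 gene lists, with the number of genes kept in brackets, in siSMARCA4 (red) and each of the other 11 knockdowns (grey), siControl2 being the line at 0. The siSMARCA4 medians run from -1.95 for mitosis to 0.65 for p53 targets and lie inside the spread of the other knockdowns.

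Targets of p53, the tumour suppressor that stops the cell cycle and promotes cell death after damage, were the highest group. Of 34 genes, 9 were 2-fold higher (26.5%) and 0 were 2-fold lower, beside 0.494% and 1.97% of all genes. The median difference was 0.65, and 31 of the 34 were above siControl2, which held the lowest of the 13 levels for 12 of them, beside 4.87% of all genes. Among the 12 knockdowns only siCTCF had a higher median for this list, 0.99, and the others ran down to 0.15 in siEED and 0.10 in the library labelled siMALAT1. Against the median of the other 11 knockdowns, 25 of the 34 were higher in siSMARCA4, with a median difference of 0.23.

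CDKN1A, which encodes the CDK inhibitor p21, was at 130.5 FPKM in siSMARCA4, between 25 and 440.0 FPKM with a median of 79.7 in the other knockdowns and at 22.5 FPKM in siControl2, 5.80-fold higher than the control (2.48). Only 1 other library was above siSMARCA4, and siControl2 was the lowest of the 13. PHLDA3, an inhibitor of AKT signalling, was at 56.9 FPKM in siSMARCA4, between 21.3 and 56.2 FPKM in the other knockdowns and at 20.5 FPKM in siControl2 (1.43). ZMAT3, an RNA-binding p53 target, was at 9.23 FPKM in siSMARCA4, between 2.98 and 7.73 FPKM in the other knockdowns and at 3.89 FPKM in siControl2 (1.06). PHLDA3 and ZMAT3, with ACER2, were at their highest of the 13 libraries in siSMARCA4.

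The other p53 targets that were 2-fold higher were SESN2, GDF15, ACER2, BTG2, AEN and SPATA18. SESN2, a stress-induced brake on mTORC1 signalling, was at 10.7 FPKM in siSMARCA4 and 3.63 FPKM in siControl2 (1.34). GDF15, a secreted stress cytokine, was at 11.2 FPKM in siSMARCA4, 12.5 FPKM in the median of the other knockdowns and 4.13 FPKM in siControl2, so it was 1.26 above the control and lay at -0.14 from the other knockdowns. BAX, a pro-apoptotic pore former, was at 14.1 FPKM in siSMARCA4 and 7.46 FPKM in siControl2 (0.84), and MDM2, a ubiquitin ligase, at 27.3 FPKM against 17.3 FPKM (0.63). FAS, a death receptor, was the lowest of the list at 10.7 FPKM in siSMARCA4 and 19.2 FPKM in siControl2 (-0.79). RPS27L, a ribosomal protein paralogue that p53 is known to induce and that was not on the list, was among the 15 largest increases, at 146 FPKM in siSMARCA4 and 53.7 FPKM in siControl2 (1.43).

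**Figure D4:**
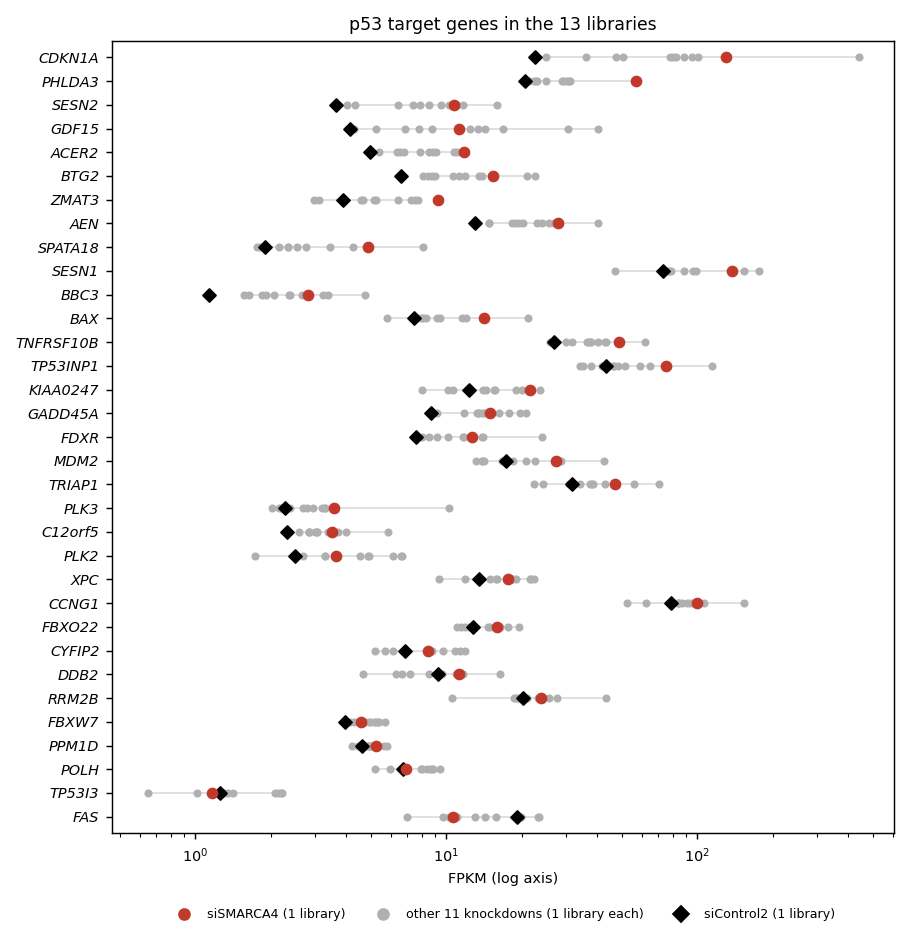
Levels of 33 of the 34 genes of the p53 target list in FPKM on a log axis, with 1 red point for siSMARCA4, 11 grey points for the other knockdowns and 1 black diamond for siControl2 per gene, ordered by the difference from siControl2. Red points lie right of the diamonds for 31 of the 33 genes drawn, with CDKN1A at 130.5 FPKM in siSMARCA4 and 22.5 FPKM in siControl2 at the top.

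Glycolytic and hypoxia-responsive genes were lower in siSMARCA4 than in most libraries. Of 27 genes, 2 were 2-fold lower (7.41%) and 0 higher, beside 1.97% and 0.494% of all genes. Of the 27, 23 were below siControl2, beside 44.6% of all genes, and the median difference was -0.42. Among the 12 knockdowns this median was the second lowest, after -0.44 in siEZH2, and the highest was 0.22 in siBRCA2. For 8 of the 27 genes (29.6%) siSMARCA4 was the lowest of the 13 libraries, beside 3.07% of all genes. Against the median of the other 11 knockdowns, 25 of the 27 were lower, with a median of -0.22. LDHA, the lactate dehydrogenase that ends anaerobic glycolysis, was at 107 FPKM in siSMARCA4, between 48.6 and 411 FPKM with a median of 214 in the other knockdowns and at 306 FPKM in siControl2 (-1.51). Its level in siSMARCA4 was the second lowest of the 13.

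PFKP and PFKL, isoforms of phosphofructokinase, had differences of -1.11 and -0.84. HK2, the inducible hexokinase, was at 1.41 FPKM in siSMARCA4, between 2.15 and 6.93 FPKM in the other knockdowns and at 3.36 FPKM in siControl2 (-0.85). PDK1, which holds pyruvate back from the mitochondria, was at 5.31 FPKM in siSMARCA4 and 11.5 FPKM in siControl2 (-0.99). ENO1, an enolase, was at 270.3 FPKM in siSMARCA4, from 277 to 490.0 FPKM in the other knockdowns and at 452 FPKM in siControl2 (-0.74). HK2, PFKL and ENO1 were each lowest in siSMARCA4, ENO1 by only 0.03. The glucose transporter SLC2A1 was at 9.05 FPKM in siSMARCA4 and 9.13 FPKM in siControl2, and HIF1A, the hypoxia-inducible factor subunit, had a difference of -0.20. The muscle isoform PFKM was slightly above the control, at 64.9 FPKM against 57.9 FPKM (0.16).

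The promoter of LDHA, at chr11:18394313-18394612 on the + strand of GRCh38.p14, is shown as that of the lowest gene of this list. Capitals mark the core letters of the hypoxia response element, ACGTG, on either strand; in each CACGTG a match on one strand overlaps a match on the other. The first bases of the matches lie at -185, -184, -87, -86 and -73.
LDHA: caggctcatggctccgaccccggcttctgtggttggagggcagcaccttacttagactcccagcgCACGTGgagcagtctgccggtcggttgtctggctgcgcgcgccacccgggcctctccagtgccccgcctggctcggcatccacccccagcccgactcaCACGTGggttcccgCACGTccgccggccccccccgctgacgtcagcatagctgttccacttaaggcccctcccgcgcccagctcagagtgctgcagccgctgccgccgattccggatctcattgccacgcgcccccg
These letters were in 10 of 26 promoters of the list (38.5%), in 26.7% of those of all genes kept and in 21.6% of all promoters in the table. Among the 2-fold lower genes they were in 27.0%.

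**Figure D5:**
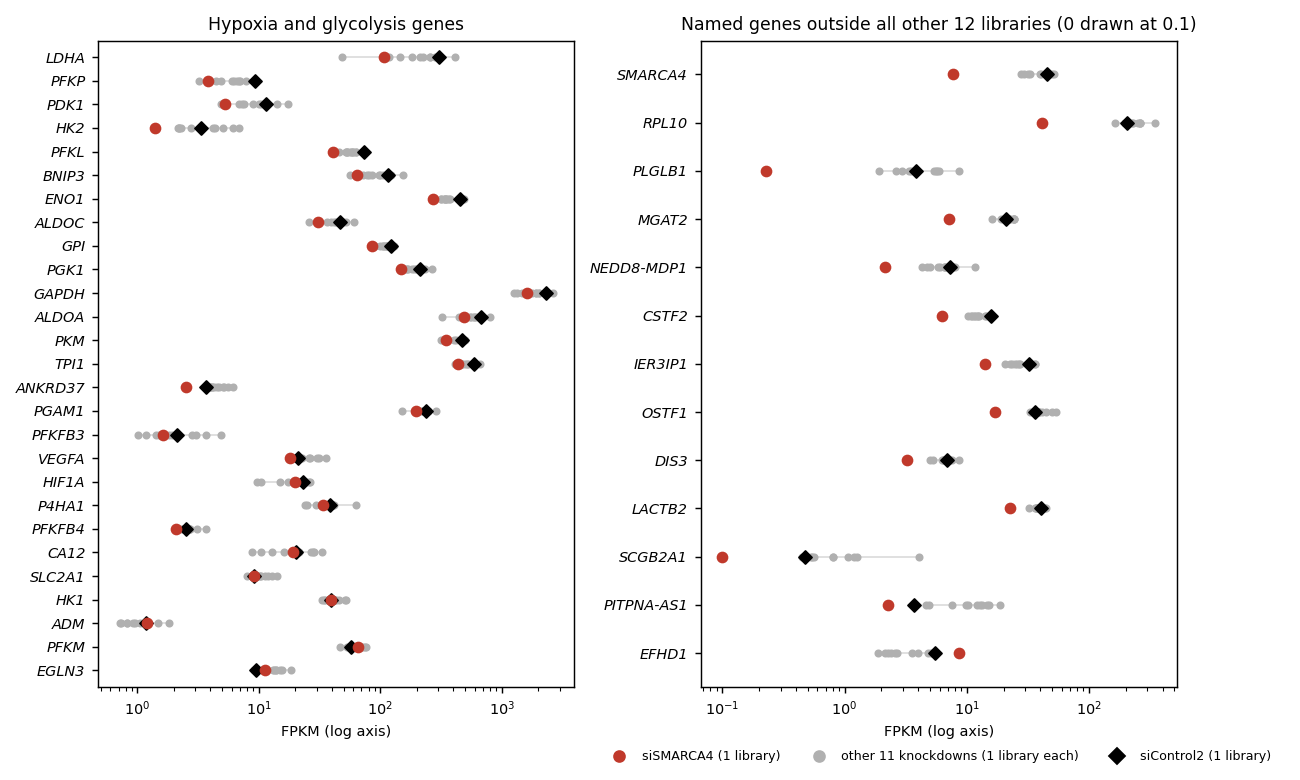
Levels in FPKM on log axes of the 27 hypoxia and glycolysis genes (left) and of the named genes for which siSMARCA4 lay at least 0.5 beyond all other 12 libraries (right, 0 drawn at 0.1), with 1 red point for siSMARCA4, 11 grey points for the other knockdowns and 1 black diamond for siControl2. On the left LDHA is at 107 FPKM in siSMARCA4 and 306 FPKM in siControl2, and on the right, where only genes with a symbol in the files are drawn, EFHD1 lies right and the others lie left of all other libraries.

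Genes of cholesterol and fatty acid synthesis had a median difference of -0.26, the second lowest of the 12 knockdowns, but 0 of 29 were 2-fold higher or lower. Over all genes the shares were 0.494% 2-fold higher and 1.97% 2-fold lower. INSIG1, a sterol-induced brake on SREBP activation, was at 60.3 FPKM in siSMARCA4, from 48.4 to 122 FPKM in the other knockdowns and at 119.7 FPKM in siControl2 (-0.98). The fatty acid desaturases FADS1 and FADS2 had differences of -0.96 and -0.95. LPIN1, a phosphatidate phosphatase, was at 11.3 FPKM in siSMARCA4, from 15.8 to 27.8 FPKM in the other knockdowns and at 20.4 FPKM in siControl2 (-0.80), the lowest of the 13.

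Some immediate early and stress genes were 2-fold above siControl2. Of 17 immediate early genes 3 were 2-fold higher (17.6%), beside 0.494% of all genes. Their median was 0.32 from siControl2 and -0.01 from the other knockdowns, and 6 of the 17 were below siControl2. ATF3, a stress-induced transcription factor, was at 40.1 FPKM in siSMARCA4, between 10.9 and 53.1 FPKM with a median of 37.8 in the other knockdowns and at 8.76 FPKM in siControl2 (2.07). CYR61, a matricellular protein, was at 10.4 FPKM in siSMARCA4, 10.6 FPKM in the median of the other knockdowns and 3.32 FPKM in siControl2 (1.40), and DUSP1, a phosphatase of MAP kinases, had a difference of 1.07. For all 3 genes siControl2 was the lowest of the 13 libraries. Of 24 genes of the unfolded protein response 1 was 2-fold higher (4.17%), DDIT3, the CHOP factor. DDIT3 was at 75.6 FPKM in siSMARCA4, 64.9 FPKM in the median of the other knockdowns and 32.0 FPKM in siControl2 (1.21). The median of those 24 genes was 0.25 from siControl2, the third highest of the 12 knockdowns, and 0.08 from the other knockdowns, and 6 of the 24 were below siControl2.

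Of 34 interferon-stimulated genes 1 was 2-fold higher and 1 lower (2.94% each), beside 0.494% and 1.97% of all genes. Their median difference was 0.21 from siControl2, the second lowest of the 12 knockdowns, and -0.15 from the median of the other 11. IFI6, an antiviral protein, was at 13.1 FPKM in siSMARCA4, between 7.35 and 622 FPKM with a median of 38.2 in the other knockdowns and at 5.65 FPKM in siControl2, so that it lay 1.09 above the control and at -1.47 from the other knockdowns. OAS3, a sensor of double-stranded RNA, was at 0.886 FPKM in siSMARCA4 and 2.93 FPKM in siControl2 (-1.06).

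Androgen-responsive and prostate lineage genes stayed near the control. Of 18 androgen-induced genes kept of 25 listed, 0 were 2-fold higher and 1 was 2-fold lower (5.56%), beside 0.494% and 1.97% of all genes. The median was 0.19. The 1 lower gene was CENPN, a kinetochore gene, at 10.4 FPKM in siSMARCA4 and 26.6 FPKM in siControl2 (-1.27). The better-known targets went in either direction. FKBP5, a co-chaperone of steroid receptors, was at 8.52 FPKM in siSMARCA4 and 16.8 FPKM in siControl2 (-0.91), and ACPP, prostatic acid phosphatase, at 103 FPKM against 71.8 FPKM (0.52). The transcripts of the prostate-specific antigen KLK3 were near 0 in both libraries, at 0.140 FPKM in siSMARCA4 and 0.0513 FPKM in siControl2.

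Of 10 androgen-repressed genes 1 was 2-fold higher (10%) and 0 were 2-fold lower, beside 0.494% and 1.97% of all genes. The 1 higher gene was CAMK2N1, an inhibitor of CaM kinase II. CAMK2N1 was at 16.1 FPKM in siSMARCA4, 14.2 FPKM in the median of the other knockdowns and 6.59 FPKM in siControl2 (1.17). CCND1, encoding cyclin D1, was at 87.1 FPKM in siSMARCA4, at up to 82.1 FPKM with a median of 50.1 in the other knockdowns and at 47.6 FPKM in siControl2 (0.86). The siSMARCA4 library was the highest of the 13 for this cyclin, by 0.08. TFF1, a secreted trefoil peptide, was at 24.1 FPKM in siSMARCA4, between 1.11 and 29.6 FPKM with a median of 7.55 in the other knockdowns and at 6.88 FPKM in siControl2, 3.50-fold higher than the control (1.67). The TFF1 level in siSMARCA4 was above the control but inside the wide range of the other knockdowns. NR3C1, the glucocorticoid receptor, was at 1.78 FPKM in siSMARCA4, 1.65 FPKM in the median of the other knockdowns and 6.0 FPKM in siControl2 (-1.33), so it was low in relation to the control and lay 0.07 above the other knockdowns. BCL2, the anti-apoptotic founder of its family, was at 0.445 FPKM in siSMARCA4, between 0.381 and 0.648 FPKM in the other knockdowns and at 1.62 FPKM in siControl2 (-0.86), with siControl2 alone above the rest.

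For the remaining lists, the shares over all genes to set beside the counts were 0.494% 2-fold higher and 1.97% 2-fold lower. PRC2 genes had a median of -0.28 from siControl2 and 0.02 from the other knockdowns, with 0 of 12 2-fold higher or lower. EZH2, the methyltransferase of PRC2, was at 8.36 FPKM in siSMARCA4 and 16.4 FPKM in siControl2 (-0.89), the highest library for it. In siSMARCA4 EZH2 lay at -0.17 from the median of the other knockdowns. Of 78 genes of cytosolic ribosomal proteins kept, 1 was 2-fold lower and the median was 0.04. Of 25 nucleolar genes, 1 was 2-fold lower, TCOF1, a factor of ribosomal RNA transcription, at 5.33 FPKM in siSMARCA4 and 12.7 FPKM in siControl2 (-1.11). Of 7 CDK inhibitor genes, CDKN1A was 2-fold higher and CDKN3, a mitotic phosphatase, 2-fold lower at 9.39 FPKM in siSMARCA4 and 31.9 FPKM in siControl2 (-1.66). Of 20 replication-dependent histone genes 1 was 2-fold higher, HIST1H1E (1.04, and level with the median of the other knockdowns), and 1 lower, HIST1H2AB (-1.12), with a median of 0.20. Of 21 luminal genes 1 was 2-fold lower, the keratin KRT19, at 0.528 FPKM against 2.71 FPKM (-1.28), and the median was 0.14. Against the median of the other knockdowns, TCOF1 lay at -0.21, CDKN3 at -0.43, HIST1H2AB at -0.21 and KRT19 at -0.27. For TCOF1, CDKN3 and HIST1H2AB siControl2 was the highest library. Mesenchymal and matrix genes (14 kept), ABC transporters (15), growth factor and Notch genes (25), BCL2 family genes (15), neuroendocrine genes (4) and Polycomb-silenced genes (4) had 0 genes 2-fold higher or lower.

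The genes by which siSMARCA4 stood apart were few. In siSMARCA4, 3 genes (0.019%) lay at least 0.5 above all other 12 libraries on the log2(FPKM + 1) scale and 14 (0.0887%) at least 0.5 below them, against 5 to 345 above and 27 to 229 below in the other knockdowns. SMARCA4 was 1 of the 14. RPL10, a protein of the large ribosomal subunit, was at 41.0 FPKM in siSMARCA4, between 163 and 348 FPKM in the other knockdowns and at 203 FPKM in siControl2 (-2.28). It stood 1.96 below the next library, while the next lowest ribosomal protein gene, RPS20, had a difference of -0.57. RPL10 has near-identical copies elsewhere in the genome, and the sources used here do not say how such reads were shared out, so this level is uncertain.

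MGAT2, a Golgi enzyme of complex N-glycan synthesis, was at 7.11 FPKM in siSMARCA4, between 16.2 and 24.5 FPKM in the other knockdowns and at 20.8 FPKM in siControl2 (-1.42). CSTF2, a subunit of the mRNA cleavage stimulation factor, was at 6.29 FPKM in siSMARCA4, from 10.2 to 15.7 FPKM in the other knockdowns and at 15.9 FPKM in siControl2 (-1.21). OSTF1, an adaptor protein first described in osteoclast activation, was at 16.9 FPKM in siSMARCA4, from 32.9 to 53.5 FPKM in the other knockdowns and at 36.1 FPKM in siControl2 (-1.05). For each of these genes siSMARCA4 lay below the range of the other 12 libraries. IER3IP1, an endoplasmic reticulum protein, was at 14 FPKM in siSMARCA4, from 20.6 to 36.4 FPKM in the other knockdowns and at 32.6 FPKM in siControl2 (-1.16). DIS3, the exosome nuclease, had a difference of -0.90, and LACTB2, a mitochondrial nuclease, one of -0.82. In the other direction, EFHD1, a calcium-binding mitochondrial protein, was at 8.72 FPKM in siSMARCA4, from 1.87 to 5.30 FPKM in the other knockdowns and at 5.47 FPKM in siControl2 (0.59), and MIR3677HG, a host transcript named from its Ensembl identifier, was at 5.33 FPKM against 2.41 FPKM (0.89).

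Other entries with large differences cannot be read with the same weight, because near-identical copies, overlapping genes or antisense partners could share their reads. Among the lower ones, PLGLB1 was at 0.227 FPKM in siSMARCA4 and 3.84 FPKM in siControl2, while its near-identical copy PLGLB2 was at 6.07 FPKM in siSMARCA4 and 0.0625 FPKM in siControl2. The read-through entry NEDD8-MDP1 was at 2.15 FPKM against 7.31 FPKM, and SERF1A, a duplicated gene, at 0.00470 FPKM against 8.33 FPKM. VTRNA1-2, a vault RNA shorter than a usual fragment, was listed at 0 in siSMARCA4 and in at least 1 other knockdown, and was at 28.0 FPKM in siControl2. Among the higher ones, the cancer-testis genes GAGE7, GAGE6, GAGE2C and BAGE4 belong to multigene families, and ZSWIM8-AS1 is an antisense entry. GAGE7 was at 27.7 FPKM in siSMARCA4, 18.7 FPKM in the median of the other knockdowns and 2.14 FPKM in siControl2 (3.19).

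The labelled cell type was checked on marker genes. Of 10 prostate luminal markers, all 10 were in the files and 2, KLK3 and KLK2, were under 0.5 FPKM in both libraries. Their summed level was 1209 FPKM in siSMARCA4, 927 to 1369 FPKM in the other knockdowns and 1034 FPKM in siControl2. Markers of other cell types were low: the sum was 3.41 FPKM in siSMARCA4 and 4.13 FPKM in siControl2 for basal cells (2 of 6 in the files), and 4.44 FPKM and 4.90 FPKM for stroma (3 of 7). It was 5.91 FPKM in siSMARCA4 and 6.14 FPKM in siControl2 for blood cells (3 of 5, with HBB at 0 in both), and 0.885 FPKM and 0.713 FPKM for endothelium (1 of 4).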

How the data were processed

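LNCaP-abl RNA was made into TruSeq libraries and sequenced on an Illumina HiSeq instrument, per the labels' protocols, and processed with TopHat and Cufflinks on hg19, per the submitters' processing notes, where versions are lacking. For each of 13 libraries the authors deposited log2 values of FPKM for 22613 gene entries. Their floor is the log2 of 0.1, so they were read as log2(FPKM + 0.1), an offset that no label states. The sorted values of the libraries differ by at most 0.0562, so the deposited values had been brought to a common distribution, a step that no label records.

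FPKM was recovered by subtracting 0.1 (0 below 1e-09) and expressed as log2(FPKM + 1). Genes with a mean of at least 0.5 FPKM over the 13 libraries were kept, without 771 entries with small RNA symbols, 10 of which are microRNA host genes. This left 15780 genes, 1933 with an Ensembl and 535 with an assembly identifier only. With 1 library per group, no test was made. Promoters and names came from RefSeq tables of GRCh38.p14 (10385 genes matched by symbol), so no hg19 coordinates are given. No counts were used, so depth and counting error are unknown. Whether the reads were counted by strand, and when the libraries were made, is not stated in the labels.

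The genes named are SMARCA4, the SWI/SNF genes kept, the 15 largest differences each way among symbols with at least 2 FPKM in the higher library, up to 15 genes each way that were 2-fold from both siControl2 and the median of the other 11 knockdowns, genes at least 0.5 beyond all other 12 libraries, and up to 6 members per list by size. These rules name 224 genes, of which the text gives a part, and some list members are not reported here. CCNA2, CCNE1, CCNE2, KLK3, MDM2, FAS, ZMAT3, SLC2A1, HIF1A, PFKM and ENO1 are list members or markers chosen after their values were seen, as were the genes whose promoters are shown. The members and the 29 lists were chosen with earlier results of these data known. Alternatives were a pseudocount of 0.1, no filter or a mean of at least 2 FPKM, quantile normalization, small RNA entries kept, centring on the median, the median of the other 11 knockdowns as the baseline, and that median without siFOXA1 and siFOXM1 or without siMALAT1. The counting of differences was run on a copy of the control library, without added noise, in which known fold changes had been put. That checks the arithmetic only and gives no support to the counts reported. Python 3.11, numpy 2.4.6, pandas 2.3.3 and matplotlib 3.10.9 were used.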

Additional observations from a re-analysis of the deposited data

How the results depend on the processing

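With 1 library per group, no count, median or level here has a replicate error, and no replicate could be left out. No paired analysis was possible because each group has 1 library and the labels give no replicate numbers. SMARCA4 stayed lower by at least 2-fold under each alternative. With a pseudocount of 0.1, which weights low genes more, the genes 2-fold from siControl2 numbered 278 higher and 520 lower, those 2-fold from the other knockdowns 80 and 151, and those standing apart 7 above and 34 below. With small RNA entries kept, 206 genes were 2-fold higher than siControl2, 123 higher and 106 lower than the other knockdowns, and 17 stood apart above. Without a filter 7 stood apart above, and with a mean of at least 2 FPKM 8 were 2-fold higher than the other knockdowns and 3 of 29 list medians moved by more than 1 SD: cell cycle transcription factors to -0.075, mesenchymal genes to 0.36 and growth factor genes to -0.19. Centring changed the sign of 1 list median. With the other 11 knockdowns' median as the baseline instead of siControl2, the counts were 19 higher and 32 lower, 13 of 29 list medians moved by more than 1 SD over the other knockdowns and 9 changed sign. Of 223 named genes other than SMARCA4, 31 then changed sign and 114 moved by more than 1 SD. Among those at least 2-fold from siControl2, 5 changed sign: CYR61 (-0.015), GDF15 (-0.14), HIST1H1E (-0.0025), IFI6 (-1.47) and NR3C1 (0.069). The cause was not tested. With the pseudocount of 0.1, 31 of the 223 moved and 0 changed sign. Quantile normalization and centring kept every count within 1.5 times. Leaving siFOXA1 and siFOXM1 out of the other knockdowns also kept both counts within that limit, as did leaving out the library labelled siMALAT1, an alternative chosen after seeing the data.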

Other observations

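A few further genes, chosen after their values were seen, show where siSMARCA4 differed from all other libraries by less than 0.5. SQSTM1, the autophagy receptor p62, was at 372 FPKM in siSMARCA4, between 205 and 359 FPKM in the other knockdowns and at 198 FPKM in siControl2 (0.91 above the control on the log2 scale). TPP1, a lysosomal peptidase, was at 61.5 FPKM in siSMARCA4, between 21.9 and 51.5 FPKM in the other knockdowns and at 34.3 FPKM in siControl2 (0.82). LAMA3, a laminin chain of the basement membrane, was at 77.2 FPKM in siSMARCA4, between 44.5 and 64.8 FPKM in the other knockdowns and at 41.7 FPKM in siControl2 (0.87). DICER1, the nuclease that matures microRNAs, was at 20.9 FPKM in siSMARCA4, between 7.31 and 19.5 FPKM in the other knockdowns and at 11.5 FPKM in siControl2 (0.81). All 4 were at their highest of the 13 libraries in siSMARCA4.

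MALAT1, a nuclear long non-coding RNA that another library's siRNAs were labelled as targeting, was at 26.9 FPKM in siSMARCA4, between 13.8 and 21.7 FPKM in the other knockdowns and at 16.4 FPKM in siControl2 (0.68), and was also highest in siSMARCA4. The library labelled siMALAT1 held the highest of those other levels.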
